A study of Mus musculus with 10 samples.

Results

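Mitochondria carry their own small circular genome, which a heart muscle cell has to copy without dividing. The 8 genes described here make the core of that copying machinery and supply it with building blocks. They were chosen by function, as all probe sets whose only annotated gene symbol was Polg, Polg2, Ssbp1, Mgme1, Top1mt, Tk2, Dguok or Rrm2b. All 8 were measured, by 9 probe sets, among 19938 genes on the array, and all 8 were bright enough to stay among the 13953 genes tested.

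The tamoxifen-labelled group held 5 mice, titled PGC-1a-/-bf/f/MerCre and labelled as lacking PGC-1α and PGC-1β, 2 coactivators that raise transcription of mitochondrial genes. The vehicle-labelled group held 5 mice, titled PGC-1a-/- and labelled as lacking PGC-1α with PGC-1β unaffected. The source names give the vehicle-labelled mice the same bf/f and MerCre alleles, which their titles leave out. No group received tamoxifen without these alleles. Loss of PGC-1β, tamoxifen itself and any effect of MerCre under tamoxifen therefore cannot be told apart. Tamoxifen (50 mg/kg per day, on 2 days, in sunflower seed oil) or the oil without it was injected at 2 months of age, and the ventricles were taken at 3 months, 1 month later. The labels do not name the promoter that drives MerCre. The tissue was both ventricles with every cell type they hold.

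Mitochondrial DNA is copied by DNA polymerase gamma, with its catalytic subunit from Polg and its accessory subunit from Polg2. A helicase (Twnk) opens the strands ahead of it, a binding protein (Ssbp1) coats the single strands, an exonuclease (Mgme1) trims the ends left behind and a topoisomerase (Top1mt) relaxes the twist. In cells that do not divide, deoxynucleotides come from salvage inside the mitochondrion by Tk2, for thymidine and deoxycytidine, and Dguok, for deoxyguanosine and deoxyadenosine. They also come from a ribonucleotide reductase that uses the p53-inducible subunit made by Rrm2b in place of Rrm2, the subunit of dividing cells. In humans, loss of TK2, DGUOK or RRM2B is known to deplete mitochondrial DNA.

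Promoter windows are shown for the 2 genes that were called lower, Mgme1 and Dguok. They run from 250 bases before to 50 bases after the annotated start, 5′ to 3′ on the gene's strand, from RefSeq on GRCm38.p6, and capitals mark a match to the NRF-1 core described after them.
Mgme1 (chr2:144270654-144270953, + strand): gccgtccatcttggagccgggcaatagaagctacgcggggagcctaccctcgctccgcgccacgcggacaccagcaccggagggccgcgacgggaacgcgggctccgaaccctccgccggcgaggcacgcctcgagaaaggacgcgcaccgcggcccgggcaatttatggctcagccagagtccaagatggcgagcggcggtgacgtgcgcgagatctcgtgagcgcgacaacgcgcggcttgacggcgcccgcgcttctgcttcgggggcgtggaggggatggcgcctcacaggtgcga
Dguok (chr6:83506920-83507219, - strand): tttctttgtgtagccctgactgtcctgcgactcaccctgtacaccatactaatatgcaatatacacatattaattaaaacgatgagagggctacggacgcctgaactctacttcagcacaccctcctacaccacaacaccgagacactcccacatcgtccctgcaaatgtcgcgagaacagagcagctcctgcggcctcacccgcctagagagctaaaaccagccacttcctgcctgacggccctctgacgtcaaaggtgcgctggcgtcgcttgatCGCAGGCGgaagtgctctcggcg

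Windows were found for 6 of the 8 genes, not for Top1mt and Rrm2b. Both strands were searched for AAGGTCA, the core site of estrogen-related receptors, CGCANGCG, the core of the site of nuclear respiratory factor NRF-1, and CCGGAAGT, a site of ETS factors such as GABP. These are factors known to act with PGC-1 coactivators. The first was in 0 of the 6 windows and in 4.72% of all 32851 windows in the table. The NRF-1 core was in Dguok, as CGCAGGCG at base 28 after the start, and in 8.21% of all windows. The ETS site was in the window of Polg and in 3.89% of all windows. The Polg window is not shown, because it lies wholly inside the annotated span of the gene, at an inner start. No base was shared between motifs. A match is a run of letters and was not tested for binding.

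Neither gene labelled as deleted read as its label says. Ppargc1a, which codes for the PGC-1α that both groups are labelled as lacking, was bright in both, at 11.20 ± 0.23 in the tamoxifen-labelled arrays and 10.81 ± 0.14 in the vehicle-labelled arrays (SD, n = 5; 0.39 higher, limma adjusted p = 0.00813). Ppargc1b, which codes for PGC-1β, averaged 10.03 ± 0.10 in the tamoxifen-labelled arrays and 9.76 ± 0.10 in the vehicle-labelled arrays (SD, n = 5; 0.27 higher, limma adjusted p = 0.00528). The labels do not say which exons were deleted or where these probe sets lie, so the readings check little and every direction given here rests on the labels. Cardiomyocyte markers were bright (10 of 10 passed the filter, mean 13.99 to 14.01 in the tamoxifen-labelled arrays and 13.96 to 13.98 in the vehicle-labelled arrays), with 1 of 10 called in each direction. Rises were called for 9 of 12 macrophage, 8 of 11 fibroblast, 3 of 10 dividing-cell and 2 of 9 smooth muscle markers. They were also called for 1 of 10 endothelial, 1 of 5 atrial (Nppa) and 1 of 4 lymphocyte markers (Ptprc), and these lists had 0 falls. In 3 of 5 atrial and 3 of 4 lymphocyte markers the change was below 0, with medians of -0.168 and -0.072. The mean of 6 atrial markers, 1 of them below the filter, was 9.025 to 10.08 in the tamoxifen-labelled arrays. In the vehicle-labelled arrays it was 9.31 to 9.58. Over all tested genes 13.6% were called higher and 8.28% lower. The endothelial count lay near that share of rises, and the macrophage and fibroblast counts lay above it. In whole ventricle, a lower share of a cell type and less RNA per cell cannot be told apart, and the part of these markers in the results was not tested. Precision is limited by having 5 arrays in a group. The labels do not say that animals came from separate litters, so p-values measure the spread between these mice.

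Of the 8 genes, 2 were lower in the tamoxifen-labelled arrays, Mgme1 and Dguok, and 0 were higher (limma, adjusted p below 0.05). At an unadjusted p below 0.05 the counts were the same 2 and 0, against 1768 lower and 2957 higher among all 13953 tested genes. Over all tested genes 8.28% were called lower, 13.6% higher and 21.9% in either direction, so the members' 2 of 8 in either direction lay near the background. The median log2 change of the members was -0.068, against 0.014 for all tested genes. In 2 of the 8 the groups did not overlap, as in 16.6% of all genes. The plot of log2 signals by array shows each gene on an axis of the same height.

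**Figure D1:**
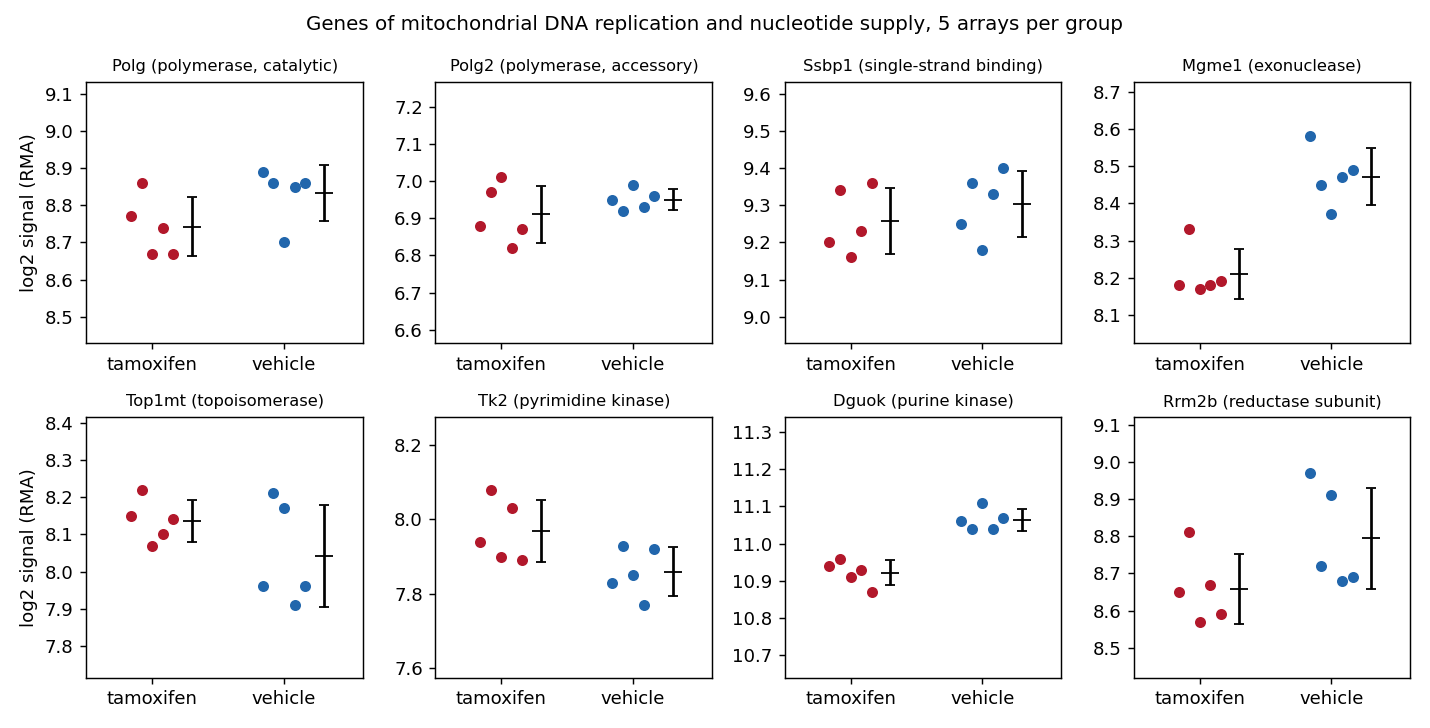
Log2 signal (RMA) of the 8 genes, 1 panel per gene with a y axis spanning 0.7, for 5 tamoxifen-labelled arrays (left, red) and 5 vehicle-labelled arrays (right, blue). Each point is 1 array, and the black mark beside each group is its mean ± SD. The groups are apart for Mgme1 and Dguok and overlap for the other 6.

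Mgme1, the exonuclease, had the lowest change. Its log2 signals were 8.18, 8.33, 8.17, 8.18 and 8.19 in tamoxifen-labelled arrays 1 to 5, against 8.58, 8.45, 8.37, 8.47 and 8.49 in vehicle-labelled arrays 1 to 5. Every tamoxifen-labelled value lay below every vehicle-labelled one. The means were 8.21 ± 0.067 and 8.47 ± 0.076 (SD, n = 5 per group), a change of -0.26 ± 0.053 (SE; limma adjusted p = 0.00189), or 1.20-fold lower. The 95% interval of the change ran from -0.37 to -0.15. Mgme1 kept its call in all 19 alternative settings, with an adjusted p of 0.000306 to 0.00682. Its change lay at the 4.44th percentile of all tested genes.

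Dguok, the purine kinase, fell by a smaller amount with little spread. It read 10.94, 10.96, 10.91, 10.93 and 10.87 in the tamoxifen-labelled arrays, against 11.06, 11.04, 11.11, 11.04 and 11.07 in the vehicle-labelled arrays. The groups did not overlap. The means of 10.92 ± 0.034 and 11.06 ± 0.029 (SD, n = 5 per group) differed by -0.14 ± 0.044 (SE; limma adjusted p = 0.0290). The call was lost without tamoxifen array 1, 3, 4 or 5 or vehicle array 1, 3 or 5 (adjusted p from 0.0516 to 0.0835) and without the filter on dim genes (adjusted p = 0.0545). Over all alternatives its adjusted p ranged from 0.00158 to 0.0835 and its change from -0.18 to -0.13.

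The polymerase and its binding protein were not called. Polg, the catalytic subunit, read 8.77, 8.86, 8.67, 8.74 and 8.67 in the tamoxifen-labelled arrays, against 8.89, 8.86, 8.70, 8.85 and 8.86 in the vehicle-labelled arrays. The groups overlapped through tamoxifen array 2 and vehicle array 3. Its change was -0.090 with a 95% interval of -0.20 to 0.025 (limma adjusted p = 0.262). Polg2, the accessory subunit, read 6.88, 6.97, 7.01, 6.82 and 6.87 in the tamoxifen-labelled arrays, against 6.95, 6.92, 6.99, 6.93 and 6.96 in the vehicle-labelled arrays. Tamoxifen-labelled values lay on both sides of the vehicle-labelled ones. Its change was -0.040 (interval -0.14 to 0.064, adjusted p = 0.617).

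Ssbp1, the single-strand binding protein, was read by 2 probe sets. The brighter, used in the fit, gave 9.20, 9.34, 9.16, 9.23 and 9.36 in the tamoxifen-labelled arrays, against 9.25, 9.36, 9.18, 9.33 and 9.40 in the vehicle-labelled arrays. The groups overlapped almost wholly, with a change of -0.046 (interval -0.17 to 0.076, adjusted p = 0.623). The dimmer gave 8.05, 8.25, 7.92, 8.02 and 7.80 in the tamoxifen-labelled arrays, against 8.28, 8.15, 8.11, 8.01 and 7.99 in the vehicle-labelled arrays. It overlapped too, with a change of -0.10 ± 0.082 (SE; adjusted p = 0.496 among all probe sets with 1 symbol). Probe sets can also bind copies of a gene elsewhere in the genome, which was not separated here for either probe set. The brighter one, used in the fit, may therefore not read Ssbp1 alone.

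Top1mt and Tk2 had the only changes above 0, and neither was called. Top1mt, the topoisomerase, read 8.15, 8.22, 8.07, 8.10 and 8.14 in the tamoxifen-labelled arrays, against 7.96, 8.21, 8.17, 7.91 and 7.96 in the vehicle-labelled arrays. The vehicle-labelled values spread more widely and enclosed all but 1 of the tamoxifen-labelled ones. Its change was 0.094 (interval -0.039 to 0.23, adjusted p = 0.318). Tk2, the pyrimidine kinase, read 7.94, 8.08, 7.90, 8.03 and 7.89 in the tamoxifen-labelled arrays, against 7.83, 7.93, 7.85, 7.77 and 7.92 in the vehicle-labelled arrays. In 3 of 5 tamoxifen-labelled arrays it lay above every vehicle-labelled one, and its change was 0.11 (interval -0.0056 to 0.22, adjusted p = 0.169).

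Rrm2b, the reductase subunit, read 8.65, 8.81, 8.57, 8.67 and 8.59 in the tamoxifen-labelled arrays, against 8.97, 8.72, 8.91, 8.68 and 8.69 in the vehicle-labelled arrays. In 4 of 5 tamoxifen-labelled arrays it lay below every vehicle-labelled one, the exception being array 2. Its change was -0.14 (interval -0.28 to 0.0060) and was not called (adjusted p = 0.166). It passed as lower with arrays weighted by quality (-0.18, adjusted p = 0.0340), after quantile normalization (-0.16, adjusted p = 0.0479) and without tamoxifen array 2 and vehicle array 4 together (-0.20, adjusted p = 0.0392), a setting chosen after seeing the data. Over all alternatives its adjusted p ranged from 0.0340 to 0.357.

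Tamoxifen array 2 was the highest of its group in 6 of the 8 genes, and it also had the highest median over all probe sets, 7.31 against 7.18 to 7.24 in the other arrays. Tamoxifen array 3 was the lowest of its group in 5 of the 8, tied with tamoxifen array 5 for Polg at 8.67. Without tamoxifen array 2 the changes of Mgme1 and Dguok were -0.29 and -0.15 (adjusted p = 0.000552 and 0.0138).

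Related genes were compared by the difference between their log2 signals in each array, which asks whether 2 genes changed by different amounts and says nothing of which is more abundant. In 6 pairs, 2 differences passed an exact permutation test. The 2 kinases of the mitochondrial salvage pathway parted, with Tk2 minus Dguok higher by 0.25 ± 0.041 in the tamoxifen-labelled arrays (SE; exact permutation p = 0.00794, adjusted p = 0.0238 over 6 pairs). The difference lay outside the vehicle-labelled range in 5 of 5 tamoxifen-labelled arrays. With 5 arrays in each group no smaller p was possible.

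Dguok also parted from Dck, the cytosolic and nuclear kinase that shares its substrates, by -0.32 ± 0.042 (SE; exact permutation p = 0.00794, adjusted p = 0.0238), again in 5 of 5 arrays. Dck read 7.42, 7.63, 7.48, 7.46 and 7.33 in the tamoxifen-labelled arrays, against 7.32, 7.21, 7.34, 7.31 and 7.27 in the vehicle-labelled arrays. It rose by 0.17 ± 0.057 (SE; limma adjusted p = 0.0370), with 4 of 5 tamoxifen-labelled values above every vehicle-labelled one. That call was lost in 11 of 18 alternatives, among them each single array left out except tamoxifen array 5 and vehicle array 3, with an adjusted p of 0.00949 to 0.0912 over all. Dck is known to be abundant in blood cells. Of 12 macrophage markers 9 rose, against 13.6% of all tested genes. Their mean log2 signal was 8.69 to 8.94 in the tamoxifen-labelled arrays and 8.48 to 8.66 in the vehicle-labelled arrays. The mean of 9 lymphocyte markers was 6.35 to 6.65 in the tamoxifen-labelled arrays and 6.39 to 6.51 in the vehicle-labelled arrays, with 5 of them below the filter. Any part of these cell types in the change of Dck was not tested.

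The other 4 pairs did not pass. Rrm2b minus Rrm2 gave -0.24 ± 0.075 (SE; exact permutation p = 0.0317, adjusted p = 0.0635), and passed after quantile normalization and without vehicle array 5 (adjusted p = 0.0317 and 0.0159, range 0.0159 to 0.229 over all alternatives). Rrm2, the S-phase subunit, averaged 7.07 in the tamoxifen-labelled arrays and 6.96 in the vehicle-labelled arrays (adjusted p = 0.363). Top1mt minus Top1, the nuclear topoisomerase, gave -0.052 ± 0.051, Polg minus Polg2 gave -0.050 ± 0.064, and Tk2 minus Tk1, the thymidine kinase of dividing cells, gave 0.042 ± 0.060 (adjusted exact permutation p = 0.540 for each). These misses do not show that the genes of a pair changed alike.

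**Figure D2:**
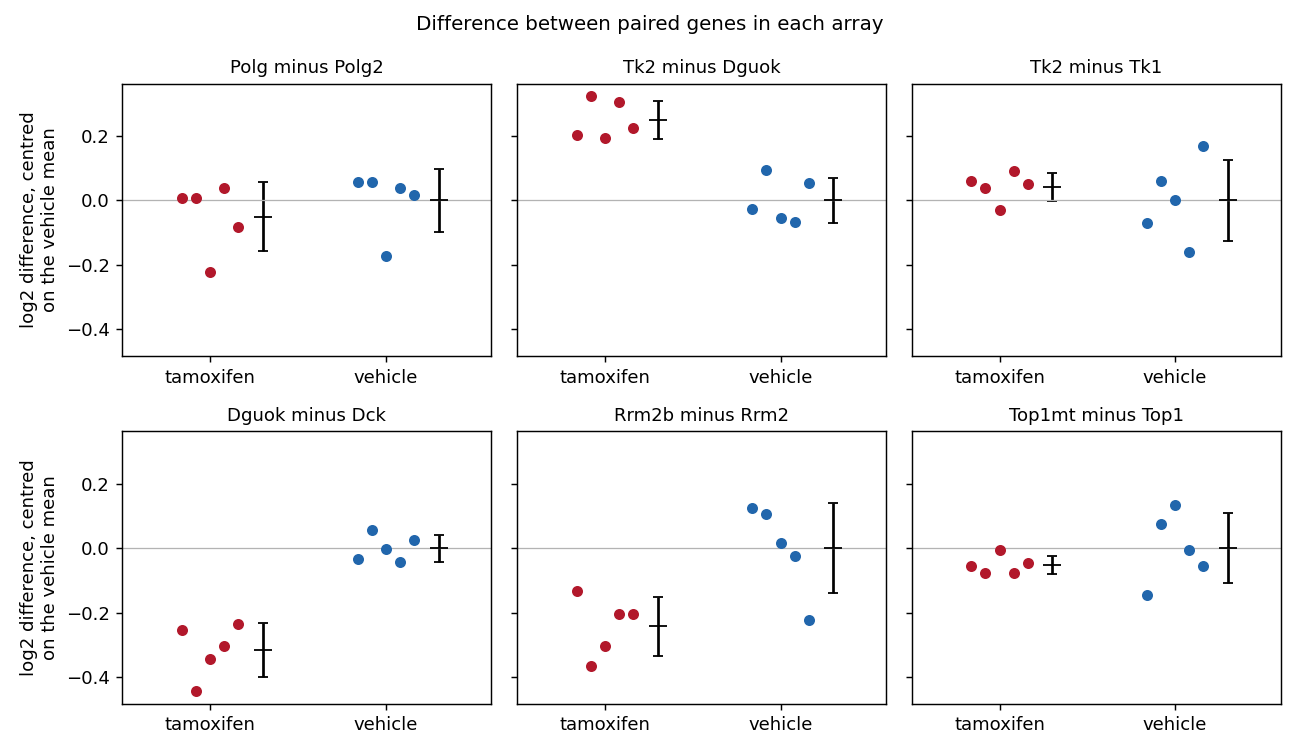
Difference in log2 signal between 2 related genes in each array, centred on the mean of the vehicle-labelled arrays, for 6 pairs. Points are arrays (tamoxifen left, red; vehicle right, blue) and black marks are mean ± SD of 5 arrays. The groups are apart for Tk2 minus Dguok, by 0.25, and for Dguok minus Dck, by -0.32.

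Of 24 tested genes of replication, nucleoid packaging and mitochondrial transcription outside the 8, 12 fell, 0 rose and 12 were not called, with a median change of -0.13 (at an unadjusted p below 0.05, 12 and 1). The background in the same fit was 8.28% lower (at an unadjusted p below 0.05, 1768 of 13953 genes lower and 2957 higher). No difference between this list and the 8 genes was tested. The lowest changes were those of Tefm and Supv3l1, followed by Atad3a (-0.47), Twnk (-0.44) and Mterf2 (-0.41). Atad3a and Mterf2 were named after their values were seen. Tefm, a transcription elongation factor, averaged 8.21 ± 0.082 in the tamoxifen-labelled arrays and 8.91 ± 0.095 in the vehicle-labelled arrays (SD, n = 5), a fall of 0.70 (adjusted p = 2.00e-07). Supv3l1, an RNA helicase, fell by 0.66 and Tfb2m, an initiation factor, fell by 0.40. Poldip2, a protein that binds DNA polymerases, fell by 0.32.

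Twnk, the helicase that works at the fork with Polg and Ssbp1, averaged 7.34 ± 0.085 in the tamoxifen-labelled arrays and 7.78 ± 0.097 in the vehicle-labelled arrays (SD, n = 5), a fall of 0.44 (adjusted p = 4.69e-05) with no overlap between groups. The intervals given above for Polg, Polg2 and Ssbp1 stop short of a fall of that size, though a difference between these genes and Twnk was not tested. Tfam, which packages mitochondrial DNA, and Polrmt, the RNA polymerase that also primes replication, were singled out after their values were seen. Tfam fell by 0.36 (adjusted p = 0.000123) and Polrmt fell by 0.19 (adjusted p = 0.0214). Polrmt lost its call without tamoxifen array 1 (adjusted p = 0.0648) or vehicle array 2 (0.0577), with a range of 0.00163 to 0.0648. Among the nucleases, Endog fell by 0.35 with no overlap between groups (adjusted p = 0.000174) and was also singled out after its value was seen, while Exog (0.074), Fen1 (-0.086) and Dna2 (0.024) were not called. The topoisomerase Top3a was not called (0.0060).

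**Figure D3:**
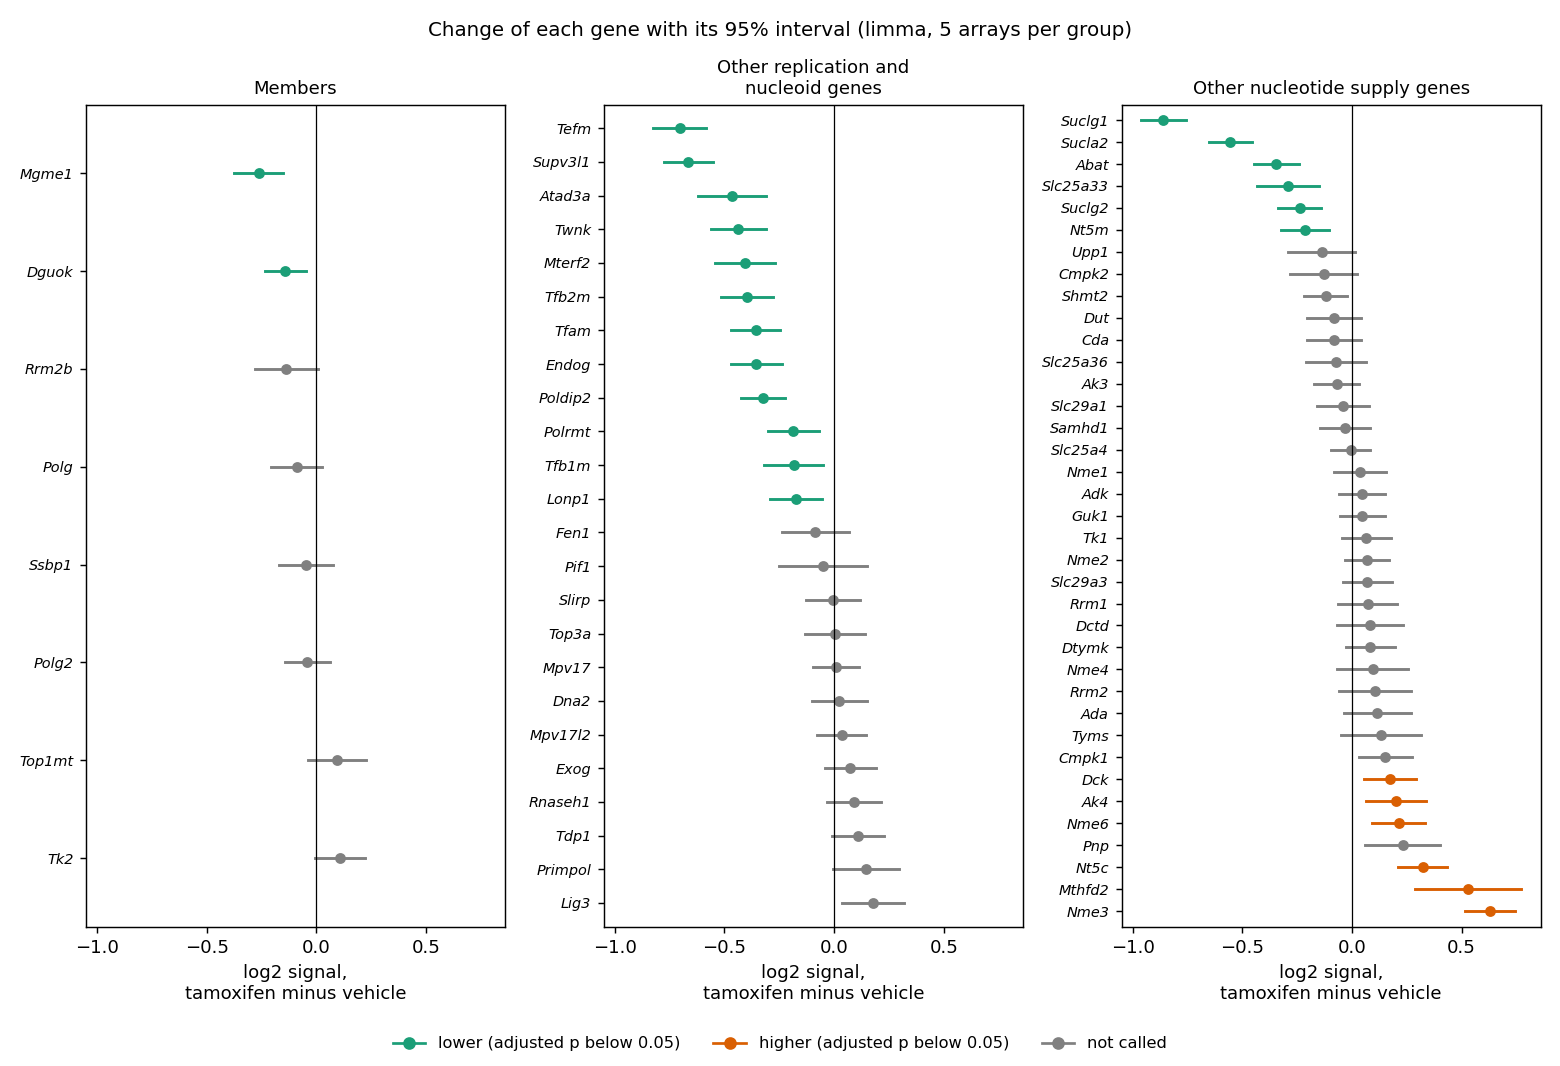
Change in log2 signal, tamoxifen-labelled minus vehicle-labelled arrays, with the 95% interval from limma (n = 5 per group), for the 8 members, 24 other replication and nucleoid genes and 37 other nucleotide supply genes. Green marks genes called lower, orange called higher and grey not called. The members lie between -0.26 and 0.11, the replication list reaches -0.70 and the supply list spans -0.86 to 0.63.

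Of 37 tested genes that supply or remove nucleotides outside the 8, 6 fell, 6 rose and 25 were not called, with a median of 0.048. Over all genes 8.28% were called lower and 13.6% higher, and the list's count of rises lay near that share. The falls were led by the subunits of succinyl-CoA ligase, a TCA cycle enzyme that pairs with mitochondrial nucleoside diphosphate kinase: Suclg1 fell by 0.86 (adjusted p = 4.93e-09) and Sucla2 fell by 0.55 (adjusted p = 2.67e-07). Abat, a transaminase of GABA, fell by 0.34. Among the rises, the nucleoside diphosphate kinase gene Nme3 averaged 10.10 ± 0.061 in the tamoxifen-labelled arrays and 9.47 ± 0.089 in the vehicle-labelled arrays (SD, n = 5), a change of 0.63 (adjusted p = 3.39e-07). Of its family, Nme6 also rose (0.21), while Nme1 (0.038), Nme2 (0.070) and Nme4 (0.094) were not called. These were named after their values were seen, and which kinase pairs with the ligase was not examined.

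The 2 deoxyribonucleotidases, which remove phosphate from deoxynucleotides, were called in opposite directions. Nt5c, the cytosolic one, rose by 0.32 (adjusted p = 0.000382). Nt5m, the mitochondrial one, fell by 0.21 (adjusted p = 0.00706), and Slc25a33, a carrier of pyrimidine nucleotides into mitochondria, fell by 0.29 (adjusted p = 0.00474). Both were singled out after their values were seen. Rrm1, the large subunit of ribonucleotide reductase that Rrm2b and Rrm2 share, was not called (0.072, adjusted p = 0.465).

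Of 20 tested p53 target genes other than Rrm2b, 12 rose and 0 fell (at an unadjusted p below 0.05, 13 and 1), with a median of 0.17 against a background of 13.6% higher. At that unadjusted p, 2957 of all 13953 tested genes were higher and 1768 lower. Btg2 rose by 0.81, Plk3 by 0.49, Perp by 0.38 and Tigar by 0.37, and Phlda3 rose by 0.33. Btg2 and Plk3 are also known as early response genes. Rrm2b, at -0.14, was not called, and 5 of these 20 targets also had changes below 0, the lowest being Sesn1 (-0.15, adjusted p = 0.0900), which was not called either and was named after its value was seen. Of 10 tested genes of base excision repair, which mends oxidised bases in mitochondrial and nuclear DNA, 2 rose (Apex1 by 0.34 and Polb by 0.18) and 2 fell (Ung, -0.30, and Apex2, -0.27), few calls to set against the 13.6% higher and 8.28% lower of all genes. Polb lost its call without tamoxifen array 5, without vehicle array 5, without tamoxifen array 2 and vehicle array 4 together and without the filter on dim genes, with an adjusted p of 0.00691 to 0.0637 over all alternatives.

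The genes nearest to the 2 called members in pattern were found over the 10 arrays. Predicted genes and genes with clone or locus names were skipped, and the medians below leave them out too. Nearest to Mgme1 were Adra1b, an adrenergic receptor (root-mean-square difference 0.0237 in log2 units), Hoxd9, a homeobox factor (0.0372), and Mrps28, a mitochondrial ribosomal protein (0.0385), against a median of 0.174 over tested genes. Because the match includes the difference between groups, a change near that of the member follows from the choice of neighbour. Among those of Mgme1, Adra1b fell by 0.27, and Hoxd9 and Mrps28 each fell by 0.23. Nearest to Dguok were Hrc, a calcium-binding protein of the sarcoplasmic reticulum (0.0206), Wdr33, of messenger RNA polyadenylation (0.0221), and Prkag1, a subunit of AMP-activated kinase (0.0241), against a median of 0.127.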

How the data were processed

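Ventricular total RNA of 10 mice (450 ng each) was hybridised to Affymetrix mouse gene arrays, 1 mouse per array. Per the submitters' processing notes, the authors used RMA and Affymetrix Expression Console 1.1, and the deposited log2 signals come from that step. RMA removes background, brings arrays to a common distribution and combines the probes in each probe set. No detection call came with the values. The level at which probe sets were defined and the genome build are not given in the sources used here.

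Of 35556 probe sets, 21789 carried 1 gene symbol in the platform annotation, 1621 carried several and 12146 none. Only those with 1 symbol were named. A RefSeq gene table (GRCm38.p6), used through the Entrez identifier for names only, updated 0 symbols. A gene with several probe sets was read from the brightest. The dimmest 30% of 19938 genes by mean over all arrays (below log2 6.529) were left out, leaving 13953.

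Groups follow the titles. Groups were compared with lmFit and eBayes (limma 3.58.1, R 4.3.3; two-sided, no covariate), adjusted with Benjamini-Hochberg over all 13953 genes, threshold 0.05. Differences between paired genes were tested by exact two-sided permutation over arrays, adjusted over 6 pairs. Likeness between genes was the root-mean-square difference over the 10 arrays after centring each gene on its mean, with predicted genes and clone or locus names skipped. The code was tested on simulated data.

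The members and all lists were chosen with earlier results of these data known. Besides the members, the rule names Ppargc1a, Ppargc1b and Pprc1, the second gene of each pair, up to 5 called genes of each other list by p and the 3 genes nearest each member in pattern. Not all of these are printed. Alternatives were quantile normalization, median centring, array weights, a replicate block, a prior that was trended and robust, no filter or a 50% filter, averaging the probe sets of a gene, and each array left out. Leaving out 2 arrays together was chosen after seeing the data. Figures used matplotlib 3.10.9.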

Additional observations from a re-analysis of the deposited data

Results flagged for a closer look

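In 18 groups of 5 values (9 probe sets of the members in both groups), 2 values stood apart from the other 4 of their group by Dixon's gap test at the 95% level, a test that chance passes in about 1 of 20 groups. For Mgme1, tamoxifen array 2 was the highest of its group at a log2 signal of 8.33, with the next at 8.19. The same array had the highest median over all probe sets, 7.31. For Polg, vehicle array 3 was the lowest of its group at 8.70, with the next at 8.85. Without that array the change of Polg was -0.12 on the log2 scale (limma adjusted p = 0.144), against -0.090 with all arrays.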

How the results depend on the processing

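No member changed sign in the alternatives in which it was tested (19, or 18 for Polg2, which the 50% filter leaves out), and Mgme1 was called lower in all 19. The count of members called lower was 2 with all arrays, 1 without the filter on dim genes and 1 to 2 with single arrays left out, where Dguok lost its call. It was 3, with Rrm2b, under array weights, quantile normalization and 2 arrays left out together. With the replicate number as a block, 2 members were lower, and 1298 genes were lower and 2225 higher, against 1155 and 1897 without it. The labels do not say what the replicate numbers mark, so the numbers were not taken to pair the mice. The correlation of same-numbered arrays' deviations ran from 0.0377 to 0.204. Tamoxifen arrays 1, 2 and 5 were most like the vehicle array of their own number, and arrays 3 and 4 were not. These values do not settle whether the mice were paired. Arrays weighted by quality gave 1784 lower genes. The other replication and nucleoid list had 1 higher gene under the trended prior, quantile normalization, median centring and the 50% filter, and 0 to 1 with single arrays left out, against 0. The p53 list had 1, 2 and 1 lower genes under the trended prior, array weights and quantile normalization, and 0 to 1 with single arrays left out, against 0. The base excision repair list had 1 higher gene without the filter, 3 with median centring and 1 to 2 with single arrays left out, against 2. The difference Rrm2b minus Rrm2 passed after quantile normalization (-0.28) and ranged from -0.30 to -0.21 with single arrays left out. Without tamoxifen array 2 and vehicle array 4 together, Tk2 minus Dguok was 0.215 and Dguok minus Dck -0.295, with an adjusted p of 0.0857, since 4 against 4 arrays cannot go lower for 2 of 6 pairs. That setting gave 1 lower p53 gene and 1 higher repair gene. Causes were not tested, apart from the smaller number of arrays.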
